A study of Mus musculus with 27 samples.

Results

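*Calb2*, *Zmynd15*, *Acap1*, *Sfrp4*, *Sohlh2* and *Nkx6-3* are 6 protein-coding genes whose RNA was lower in mouse embryonic stem cells (mESCs) after knockdown (KD) of *Gas41*. They were found by their symbols among the 23494 genes listed in all 3 deposited count tables. They were chosen by their fold changes with the first of a pair of *Gas41* short hairpin RNAs (shRNAs) relative to control cells, as strong falls, so the values with that shRNA describe the choice and were not tested. The cells were J1 mESCs, a single mouse line grown without feeder cells in medium with leukemia inhibitory factor (LIF), a cytokine that keeps mESCs undifferentiated. All 5 groups came from this line. The KD groups had been infected with lentivirus carrying an shRNA and were harvested 8 days after infection: 3 libraries with the non-targeting shRNA (shNT, called shCon in the labels), 3 with shGas41-1 and 2 with shGas41-2. The remaining groups came from an embryoid body (EB) differentiation series of shCon cells: 2 libraries of undifferentiated cells kept with LIF (EB day 0) and 2 of EBs grown in suspension without LIF for 6 days (EB day 6). The study's methods speak of biological repeats for its experiments in general, but the labels do not say that these libraries came from separate cultures, so p-values measure the spread between the libraries, part of which may be technical. RNA of whole cultures was sequenced, and fewer cells of a type and less RNA per cell cannot be told apart in it.

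GAS41, the product of the gene that the files list as *Yeats4*, holds a YEATS domain, a module that binds acetylated histone tails. It is a subunit shared by the Tip60/p400 and SRCAP chromatin complexes, which place the histone variant H2A.Z. The 6 genes have no common molecular role. *Sfrp4* encodes a secreted Frizzled-related protein that binds Wnt ligands outside the cell. *Calb2* encodes calretinin, an EF-hand protein that binds calcium in the cytoplasm and is best known as a marker of certain neurons. *Acap1* encodes a GTPase activating protein for Arf6 that works in recycling from endosomes. The products of the other 3 genes act in the nucleus: *Zmynd15* encodes a MYND zinc finger repressor of male germ cells, *Sohlh2* a basic helix-loop-helix factor of early germ cells, and *Nkx6-3* an NK homeodomain factor known from the stomach.

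The stretches of *Yeats4* that the shRNAs pair with are shown because every KD value below depends on them. Each is given as the sense strand, 5′ to 3′, with capitals on the 7 bases that pair with guide bases 2 to 8, the seed.

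shGas41-1 target: gtagcattccacgACGTTAAg

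shGas41-2 target: atcgttaagccaaTCGTTTAt

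In mm9, the build of the files, the shGas41-1 target lay at chr10:116652513-116652533 on the minus strand, in the 3′ UTR in exon 7 of 7. The shGas41-2 target lay at chr10:116659320-116659340 on the same strand, in the coding sequence in exon 2. Among annotated protein-coding transcripts each whole 21-base target occurred in *Yeats4* and in no other gene. The shGas41-1 seed match occurred in transcripts of 730 of 22754 genes (3.21%) and that of shGas41-2 in 689 (3.03%). None of the 6 genes held either seed match in a protein-coding transcript. Their longest run shared with a target was 6 to 7 bases for shGas41-1 and 5 to 8 bases for shGas41-2.

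*Yeats4* itself was low in every KD library. Levels are given as CPM, the reads of a gene as a share of all counted reads of its library, scaled for library size and composition. It stood at 61.2, 53.4 and 51.2 CPM with shNT, at 3.46, 4.40 and 5.07 CPM with shGas41-1, and at 8.81 and 7.97 CPM with shGas41-2. Thus 7.80% of the shNT mean remained with shGas41-1 (log2 fold change −3.66, standard error (SE) 0.19, FDR = 0.000375) and 15.2% with shGas41-2 (log2 fold change −2.71, SE 0.13, FDR = 0.000934), where the FDR is from edgeR's quasi-likelihood test, adjusted over all genes tested. In the EB series *Yeats4* was at 41.5 and 44.2 CPM on day 0 and at 47.0 and 52.3 CPM on day 6, a log2 difference of 0.19 (SE 0.09, FDR = 0.105). The paper, by contrast, reports that Gas41 RNA (by RT-PCR) and protein (by western blot) decreased during EB formation. Protein was not measured in these libraries.

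Total counts ran from 59224537 to 81524773 per library, so 3 counts, taken as the detection floor, were worth 0.0373 to 0.0490 CPM. Pluripotency markers summed to between 5586 and 6872 CPM in the 4 mESC groups and to 1364 and 1729 CPM in the EB day 6 libraries. Within that sum 3 of the 8 markers were lower in every KD library than in every shNT library. *Tfcp2l1* was at 585 to 1075 CPM with shNT, 172 to 361 with shGas41-1 and 434 to 458 with shGas41-2, *Klf4* at 223 to 319, 91.8 to 136 and 156 to 169 CPM, and *Esrrb* at 688 to 998, 252 to 492 and 579 to 633 CPM. For *Pou5f1*, *Nanog*, *Sox2*, *Zfp42* and *Dppa5a* the shGas41-1 and shNT ranges overlapped. With shGas41-2, *Pou5f1* and *Sox2* also overlapped shNT. *Nanog* (834 to 918 against 702 to 831 CPM) and *Zfp42* (1601 to 1753 against 1173 to 1550 CPM) were higher with shGas41-2. *Dppa5a* (775 to 809 against 855 to 962 CPM) was lower. The part of these markers in the KD values of the 6 genes was not tested. All 8 EB differentiation markers summed to at most 14.9 CPM in an mESC library and to 1507 and 2092 CPM on EB day 6. Blood cell markers, 6 of 7 of which were listed, summed to at most 4.31 CPM in any library. Fibroblast or feeder markers (5 of 7 listed) summed to between 6.69 and 30.9 CPM, highest on EB day 6, with *Col3a1* at 0 in both EB day 0 libraries, and all 6 trophoblast markers summed to between 18.5 and 56.0 CPM, most of it *Tfap2c* in mESCs. *Tfap2c* was lower in both KD groups (19.8 to 25.0 CPM) than with shNT (28.2 to 42.3 CPM), whereas *Gata3* was at 1.41 to 3.20 CPM with shGas41-1 and 1.06 to 1.21 with shGas41-2 against 0.0814 to 0.180 with shNT, and *Cdx2* at 1.11 to 1.28 and 0.672 to 0.804 against 0.0679 to 0.343 CPM. Their part was likewise not tested.

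Among the 6 genes the level in shNT cells differed widely. Per kilobase of exon, with the exons of all annotated transcripts of a gene merged, *Calb2* was at 14.8 ± 4.14 CPM per kb (SD, n = 3), above 81.6% of 22822 genes. *Sohlh2* was at 13.6 ± 0.955 CPM per kb, and its range overlapped that of *Calb2*. *Nkx6-3* followed at 7.70 ± 1.52 CPM per kb. *Sfrp4* (3.18 ± 0.0716), *Acap1* (1.38 ± 0.292) and *Zmynd15* (0.435 ± 0.0445 CPM per kb, above 37.4% of genes) stood lower, with no overlap between neighbours in this order. The merged length was 4878 bases for *Acap1* and 4409 for *Zmynd15*, but their longest protein-coding transcripts have 2482 and 2804 bases. For *Sfrp4* both lengths are 4049 bases. The distance of *Acap1* and *Zmynd15* from *Sfrp4* on this scale therefore depends on the length used.

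**Figure D1:**
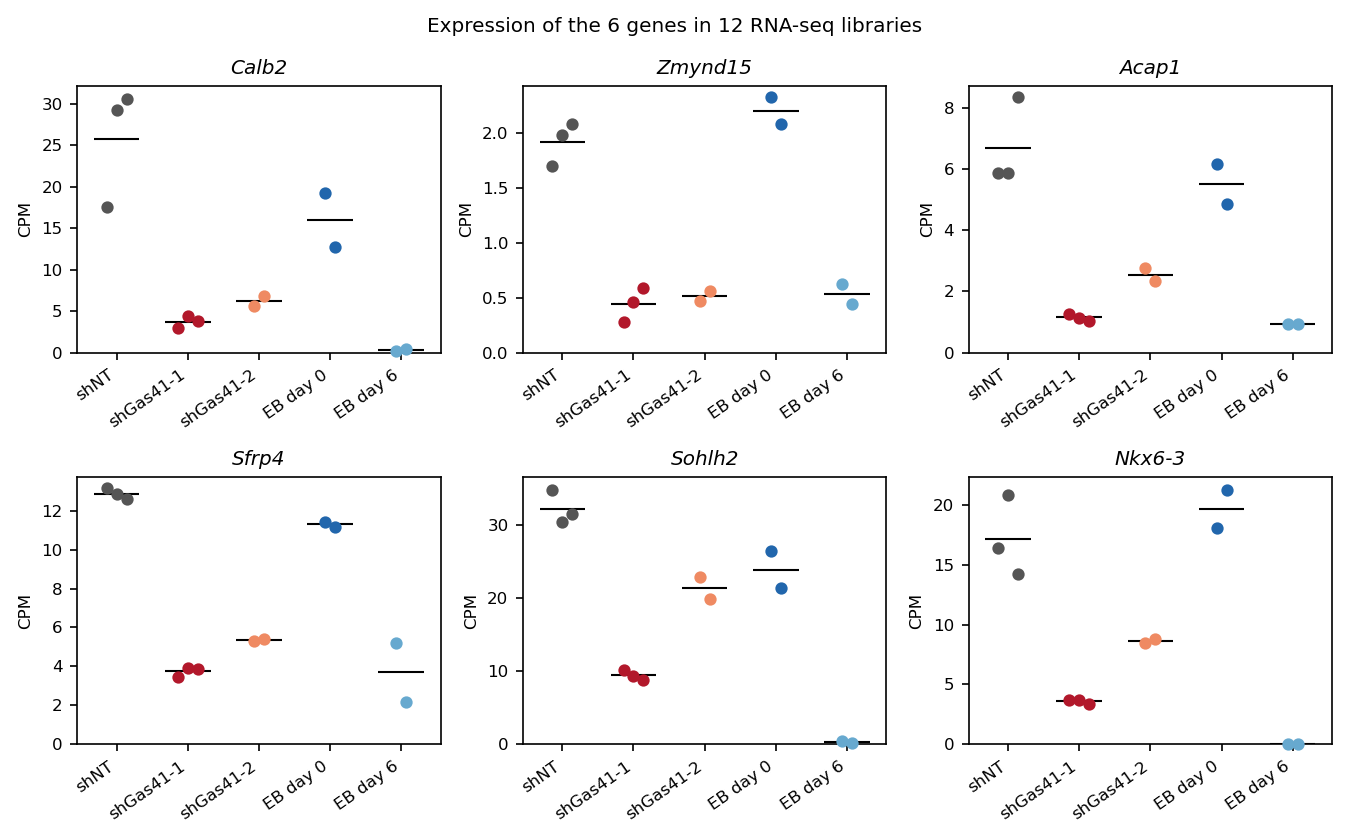
Each panel plots the level of 1 gene in CPM (linear axis from 0, with its own scale) in 12 libraries. Points are libraries and bars are group means: all 6 genes sit lower with either shRNA than with shNT, and *Calb2*, *Sohlh2* and *Nkx6-3* are close to 0 on EB day 6 while *Zmynd15*, *Acap1* and *Sfrp4* are not.

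*Sfrp4* (ENSMUSG00000021319, chr13:19714973-19724863, plus strand, mm9) had the tightest control replicates. It stood at 13.2, 12.9 and 12.6 CPM with shNT, at 3.46, 3.93 and 3.86 CPM with shGas41-1, and at 5.28 and 5.42 CPM with shGas41-2. EB day 0 libraries held 11.4 and 11.2 CPM and EB day 6 libraries 5.21 and 2.18 CPM. The 4 mESC groups did not overlap one another, in the order shNT, EB day 0, shGas41-2, shGas41-1, while the EB day 6 pair lay on either side of the shGas41-1 libraries.

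*Calb2* (ENSMUSG00000003657, chr8:112661402-112692110, minus strand) varied most between control libraries. Its shNT libraries held 17.5, 29.3 and 30.6 CPM, the shGas41-1 libraries 3.00, 4.36 and 3.83 CPM, and the shGas41-2 libraries 5.66 and 6.86 CPM. On EB day 0 it was at 19.2 and 12.7 CPM, a range that overlapped shNT, and on EB day 6 it was at 0.151 and 0.378 CPM. All other neighbouring groups were separate.

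*Acap1* (ENSMUSG00000001588, chr11:69695069-69709041, minus strand) was at 5.89, 5.89 and 8.36 CPM with shNT and at 6.16 and 4.88 CPM on EB day 0, which overlapped. It was at 2.76 and 2.35 CPM with shGas41-2 and at 1.26, 1.14 and 1.05 CPM with shGas41-1. EB day 6 libraries were lowest, at 0.921 and 0.939 CPM, just under the shGas41-1 range.

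*Zmynd15* (ENSMUSG00000040829, chr11:70272935-70279704, plus strand) was the least abundant of the 6. With shNT it stood at 1.70, 1.98 and 2.08 CPM, and on EB day 0 at 2.32 and 2.08 CPM. The shGas41-1 libraries held 0.276, 0.458 and 0.589 CPM, the shGas41-2 libraries 0.473 and 0.557 CPM, and the EB day 6 libraries 0.619 and 0.439 CPM. These last 3 groups overlapped one another and lay apart from both control groups. In the annotation 552 of its exon bases (12.5%) also belong to exons of *Cxcl16* on the opposite strand, and the library kit does not mark strand, so reads from there cannot be told apart. *Cxcl16*, a chemokine gene, had a log2 fold change of 2.61 (SE 0.19, FDR = 8.83e-05) on EB day 6 and of −0.40 (SE 0.32, FDR = 0.453) with shGas41-2.

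*Sohlh2* (ENSMUSG00000027794, chr3:54985950-55013879, plus strand) differed most between the shRNAs in the share of RNA left. It was at 34.7, 30.4 and 31.4 CPM with shNT, at 10.1, 9.28 and 8.76 CPM with shGas41-1, and at 22.8 and 19.9 CPM with shGas41-2. EB day 0 libraries held 26.4 and 21.3 CPM, overlapping shGas41-2, and EB day 6 libraries 0.377 and 0.167 CPM. *Nkx6-3* (ENSMUSG00000063672, chr8:24263743-24269420, plus strand) was at 16.4, 20.9 and 14.3 CPM with shNT and at 18.1 and 21.3 CPM on EB day 0, again overlapping. It stood at 8.50 and 8.80 CPM with shGas41-2 and at 3.73, 3.71 and 3.32 CPM with shGas41-1. In EB day 6 libraries it was represented by 1 count in one library and 0 in the other, under the floor in both.

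The shGas41-1 values are those that chose the genes. Relative to shNT the log2 fold changes were −2.76 (SE 0.25) for *Calb2*, −2.51 (SE 0.21) for *Acap1*, −2.24 (SE 0.18) for *Nkx6-3*, −2.10 (SE 0.30) for *Zmynd15*, −1.75 (SE 0.14) for *Sfrp4* and −1.75 (SE 0.13) for *Sohlh2*. Between 14.5% (*Calb2*) and 29.2% (*Sohlh2*) of the shNT mean remained. A gene was called lower when its level was at least 2-fold lower at an FDR of 0.05 or less, which held for 438 of 18274 genes tested (2.40%), while 7.90% were called higher by the same limits. Ordered by log2 fold change, the 6 genes held places 4, 12, 20, 28, 62 and 63 among those 438. The choice had no numeric threshold, so no gene lies just outside it.

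The second shRNA asked whether the lower levels were seen with another stretch of *Yeats4* targeted. All 6 genes were lower with shGas41-2 than with shNT, without overlap between the libraries, which held in the same direction for 24.2% of all genes tested. *Calb2* (24.3% of the shNT mean left), *Zmynd15* (26.9%), *Acap1* (38.0%) and *Sfrp4* (41.5%) were called lower. *Nkx6-3* (50.3% left) and *Sohlh2* (66.4% left) passed the FDR but not the 2-fold limit. The 4 of 6 called stand beside 0.869% of the 18405 genes tested. Among the other 432 genes called lower with shGas41-1, 106 (24.5%) were called lower with shGas41-2 against shNT and 0 higher. The shNT libraries are the same ones that were used to choose the genes, so this comparison is not free of that choice.

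The log2 fold changes with shGas41-2 were −2.03 for *Calb2* (SE 0.25, FDR = 0.00386), −1.89 for *Zmynd15* (SE 0.24, FDR = 0.00453), −1.39 for *Acap1* (SE 0.21, FDR = 0.00876) and −1.26 for *Sfrp4* (SE 0.12, FDR = 0.00151). For *Nkx6-3* the value was −0.98 (SE 0.17, FDR = 0.0155) and for *Sohlh2* −0.58 (SE 0.12, FDR = 0.0255). With 2 libraries a single one weighs heavily: without shGas41-2 replicate 2 the FDR of *Acap1* was 0.0807, that of *Nkx6-3* 0.106 and that of *Sohlh2* 0.221, and without replicate 1 those of *Nkx6-3* and *Sohlh2* were 0.115 and 0.114. Without shNT replicate 2 the FDR of *Sohlh2* was 0.0763. *Calb2*, *Zmynd15* and *Sfrp4* stayed called whichever library was left out.

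The shRNAs were set side by side as description only, since the choice of strong falls with shGas41-1 favours larger effects with that shRNA. In a fit of the 8 KD and shNT libraries, the log2 difference of shGas41-1 minus shGas41-2 was −1.25 (95% interval −1.65 to −0.85) for *Nkx6-3*, −1.17 (−1.46 to −0.87) for *Sohlh2* and −1.13 (−1.59 to −0.66) for *Acap1*. It was −0.73 (−1.29 to −0.17) for *Calb2*, −0.49 (−0.81 to −0.18) for *Sfrp4* and −0.21 (−0.94 to 0.52) for *Zmynd15*. For the targeted gene *Yeats4*, which was not chosen on these values, it was −0.94 (−1.34 to −0.54).

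**Figure D2:**
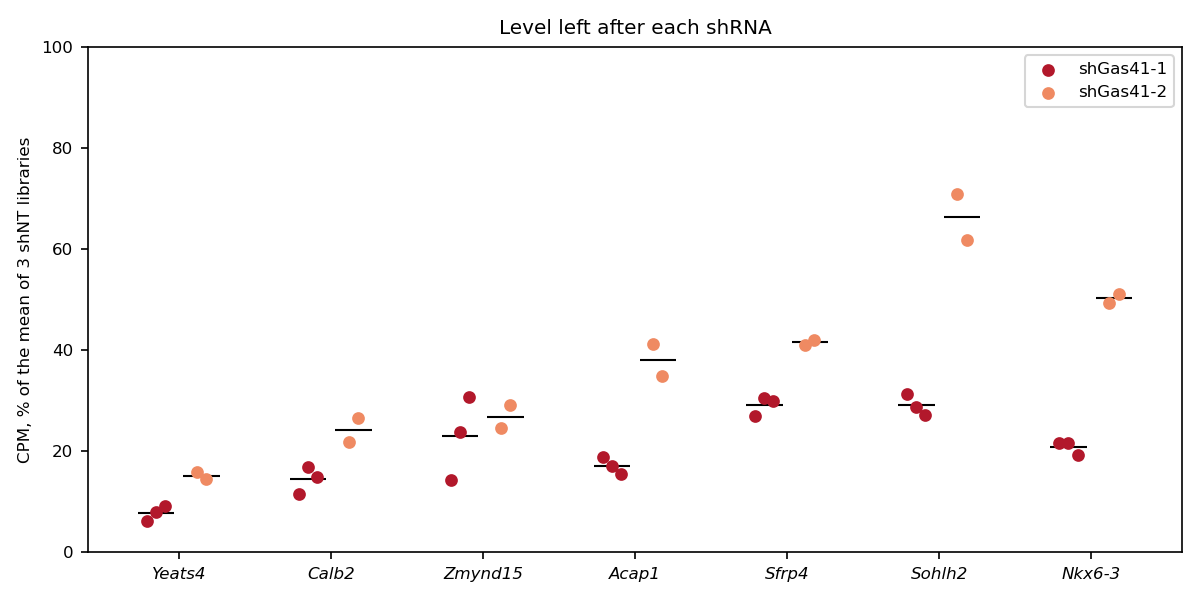
The level left in each KD library, as CPM in % of the mean of 3 shNT libraries (vertical axis, 0 to 100), for *Yeats4* and the 6 genes. Points are libraries and bars are group means: shGas41-1 leaves 7.80% of *Yeats4* and shGas41-2 15.2%, and *Sohlh2* shows the widest gap between shRNAs, 29.2% against 66.4%.

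EB day 0 cells were a second set of undifferentiated control cells. Their values were not among the shGas41-1 fold changes that chose the genes, but earlier results of these data were known at that choice. Against EB day 0 cells, 5 of 6 genes were called lower with shGas41-2, where 3.53% of 18457 genes tested were called lower and 6.71% higher. The libraries of these 5 did not overlap, as for 36.2% of all genes in that direction. *Zmynd15* had a log2 fold change of −2.09 (SE 0.27, FDR = 0.000332), *Calb2* of −1.35 (SE 0.19, FDR = 0.000563), *Nkx6-3* of −1.18 (SE 0.12, FDR = 0.000105), *Acap1* of −1.11 (SE 0.19, FDR = 0.0014) and *Sfrp4* of −1.08 (SE 0.13, FDR = 0.000215). *Sohlh2* stood apart: its level was 89.6% of that on EB day 0, the libraries overlapped, and the log2 difference was −0.16 (SE 0.13, 95% interval −0.44 to 0.13, FDR = 0.357). The shGas41-2 and EB libraries belong to different experiments, and the experiment and the KD cannot be told apart in this comparison. *Acap1* was no longer at the 2-fold limit without shGas41-2 replicate 2 or without EB day 0 replicate 2 (log2 fold change −0.93), which left 4 genes called.

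The controls could themselves be compared. Between EB day 0 and shNT 0 of 6 genes were called lower by edgeR (background 0.121% of 18134 genes) and 0 by DESeq2, with 2 of 6 lower at an unadjusted p under 0.05 (11.6% of all genes). Those were *Calb2* (log2 difference of EB day 0 minus shNT −0.67, SE 0.25, FDR = 0.154) and *Sohlh2* (−0.41, SE 0.13, FDR = 0.113), both lower on EB day 0. DESeq2 gave them adjusted p-values of 0.0413 and 0.0368. The other 4 genes ranged from −0.26 (*Acap1*, FDR = 0.449) to 0.21 (*Zmynd15*, FDR = 0.535). The control groups did not overlap for *Sohlh2*, *Sfrp4* and, by a small margin, *Zmynd15*, which is 3 of 6 beside 44% of all genes in either direction.

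**Figure D3:**
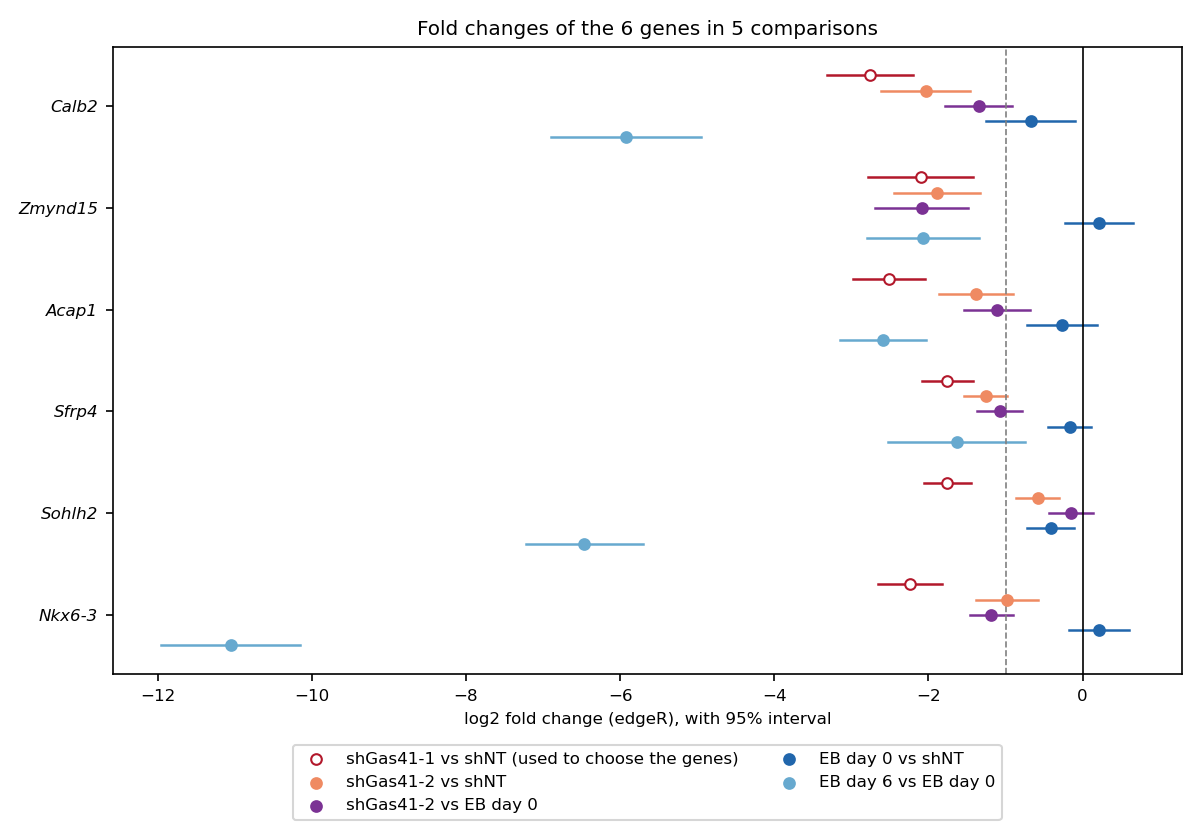
The log2 fold change of each gene in 5 comparisons (horizontal axis, with 95% intervals from edgeR), where open circles mark the comparison used to choose the genes and the dashed line a 2-fold lower level. The shGas41-2 values lie below 0 for every gene against shNT and include 0 for *Sohlh2* against EB day 0, and EB day 6 values run from −1.63 for *Sfrp4* to a fitted −11.05 for *Nkx6-3*, which rests on 1 count on day 6.

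EB differentiation addressed a separate question, how the same genes behave when shCon mESCs, without *Gas41* KD, leave the undifferentiated state. All 6 were called lower on EB day 6 than on EB day 0, beside 14.7% of the 18287 genes tested, and their libraries did not overlap, as for 40.3% of all genes in that direction. They fell into separate size classes. *Sohlh2* fell to 1.14% of its EB day 0 mean (log2 fold change −6.46, SE 0.32, FDR = 2.04e-05) and *Calb2* to 1.66% (−5.93, SE 0.40, FDR = 6.47e-05). *Nkx6-3* went from 2764 counts over both EB day 0 libraries to 1 count over both EB day 6 libraries, 0.0385% of the earlier level (95% exact interval 0.000975% to 0.215%, counting error only). Its fitted log2 fold change of −11.05 (FDR = 6.94e-06) depends on how near-zero counts are handled, and it was the lowest of all genes tested. With 2 libraries on day 6 the folds are imprecise: *Calb2* was at −5.41 without EB day 6 replicate 2 and at −6.72 without replicate 3, and *Sohlh2* at −7.16 and −5.98.

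The remaining genes kept a measurable level on EB day 6. *Sfrp4* kept 32.7% (log2 fold change −1.63, SE 0.37, FDR = 0.00921), *Zmynd15* 24.1% (−2.07, SE 0.30, FDR = 0.00141) and *Acap1* 16.8% (−2.59, SE 0.23, FDR = 0.000183). Their EB day 6 means of 3.69, 0.529 and 0.930 CPM stand beside shGas41-1 means of 3.75, 0.441 and 1.15 CPM. For *Calb2*, *Sohlh2* and *Nkx6-3*, by contrast, the shGas41-1 means were 3.73, 9.38 and 3.59 CPM while every EB day 6 library held at most 0.378 CPM. *Sfrp4* was at −2.39 without EB day 6 replicate 2 and at −1.13 without replicate 3. Its call rests on both day 0 libraries, with an FDR of 0.0635 without EB day 0 replicate 2 and of 0.134 without replicate 3. The summed pluripotency markers were lower and the EB differentiation markers higher in the same libraries, as given above, and their part in these values was not tested.

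The 6 genes were set beside the other 432 genes called lower with shGas41-1. Against EB day 0, shGas41-2 called 133 of 431 of these lower (30.9%) and 5 higher, with a median log2 fold change of −0.79 against −1.15 for the 6 genes and 0.01 for all genes tested. During EB differentiation 177 of 430 (41.2%) were called lower and 74 higher, with a median of −0.62 against −4.26 for the 6 genes and 0.00 for all. Thus among genes lower with shGas41-1 both directions occurred during EB differentiation. The 6 genes were chosen as strong falls, with earlier results of these data known. They do not stand for the 432, and no conclusion is drawn from the contrast.

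No close relative of the 6 genes was called lower with shGas41-2 against shNT. Over 6 lists of relatives 69 genes were tested, of which 0 were called lower and 7 higher by edgeR, and likewise 0 and 7 by DESeq2, where edgeR called 0.869% of all genes lower and 3.96% higher. At an unadjusted p under 0.05, 8 of the 69 relatives were lower and 17 higher, beside 13.4% and 14.9% of all genes. List medians lay between −0.12 and 0.48, beside −0.01 for all genes. Against EB day 0, edgeR called 1 of 70 relatives lower and 7 higher, and DESeq2 called 0 lower and 4 higher. By edgeR 3.53% of all genes were called lower there and 6.71% higher.

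Among extracellular Wnt antagonists, the relatives of *Sfrp4*, 7 of 12 listed genes could be tested and 3 were called higher with shGas41-2. All 3 were also called higher against EB day 0 by edgeR, where DESeq2 called 2 of the 7 higher. Against shNT *Sfrp5* had a log2 fold change of 1.37 (SE 0.17, FDR = 0.0042) and *Sfrp2* of 1.02 (SE 0.18, FDR = 0.0139). *Dkk1*, an antagonist that acts on Wnt co-receptors, had 1.90 (SE 0.42, FDR = 0.0332). It was near the floor, at 0.0950 to 0.113 CPM with shNT and 0.299 and 0.467 CPM with shGas41-2. *Sfrp1*, the most abundant family member at 172 to 220 CPM with shNT and 214 to 222 CPM with shGas41-2, differed by 0.15 (SE 0.11, FDR = 0.42). Thus *Sfrp4* was lower while other members of its family were higher or not called. On EB day 6, 4 of 8 tested antagonists were called lower, with *Notum* at −3.78, *Sfrp5* at −3.38, *Sfrp1* at −2.69 and *Dkk3* at −1.23, and 4 were called higher, with *Frzb* at 10.84, *Cer1* at 8.14, *Dkk1* at 6.84 and *Sfrp2* at 2.87.

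Of the EF-hand calcium binders related to *Calb2*, 8 of 11 were tested with shGas41-2 and 0 were called against shNT by edgeR or DESeq2, with 2 lower and 3 higher at an unadjusted p under 0.05. Against EB day 0, 1 of 8 was called by edgeR, *Scgn*, higher at 2.10 (SE 0.58, FDR = 0.0161). Its levels were low, at 0.0667 and 0.152 CPM on EB day 0 and 0.311 and 0.622 CPM with shGas41-2. *Calb1*, which encodes calbindin and is closest to calretinin, was near the floor at 0.0543 to 0.184 CPM with shNT and 0.311 to 0.485 CPM with shGas41-2, a log2 fold change of 1.70 (SE 0.52, FDR = 0.0761). During EB differentiation 1 of 7 was called, *Rcn2*, at 1.53. Markers of neurons, where *Calb2* is best known, summed over 5 of 7 listed genes to between 541 and 758 CPM in the mESC groups and to 145 and 171 CPM on EB day 6. Most of this sum was *Tubb3* and *Stmn2*, which with *Rbfox3* were lower on EB day 6 than on EB day 0. *Gad1* and *Gad2* went the other way. *Gad1* was at 0.614 and 0.925 CPM on EB day 0 and at 8.85 and 12.9 CPM on EB day 6. *Gad2* was at 0.307 and 0.455 and at 3.51 and 5.12 CPM. The part of these markers in the *Calb2* values was not tested.

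None of the 20 Arf GTPase activating protein genes related to *Acap1* was called with shGas41-2 by edgeR or DESeq2, whether against shNT (4 lower and 1 higher at an unadjusted p under 0.05) or against EB day 0 (8 lower and 1 higher, beside 25.3% and 24.4% of all genes). Its nearest relatives *Acap2* and *Acap3* had log2 fold changes of −0.29 (SE 0.17, FDR = 0.304) and 0.13 (SE 0.15, FDR = 0.628) against shNT. By EB day 6, 3 of 20 were called lower, led by *Adap1* at −4.29, and 3 higher, led by *Arap3* at 1.51, near the shares of all genes called (14.7% and 16.6%), while *Acap2* and *Acap3* differed by 0.12 and −0.12 and were not called.

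MYND zinc finger genes, the relatives of *Zmynd15*, included 1 of 13 called with shGas41-2. This was *Zmynd8*, a reader of histone marks, which was higher at 1.44 (SE 0.13, FDR = 0.00145) and rose from 454 to 597 CPM with shNT to 1369 and 1536 CPM. In EBs *Smyd1* was called lower at −4.77, and *Egln1* and *Zmynd10* were called higher at 2.45 and 1.53.

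The NK homeobox relatives of *Nkx6-3* included 1 of 9 called with shGas41-2 against shNT, *Nkx2-9*, at 1.52 (SE 0.29, FDR = 0.0205). Against EB day 0 it was at 0.51 (SE 0.26, FDR = 0.142) and not called. In that comparison *Nkx2-1* was called lower by edgeR, at −2.14 (SE 0.55, FDR = 0.0114), while DESeq2 called 0 of 10 relatives. *Nkx2-1* was near the floor with shGas41-2, at 0.0648 and 0.0871 CPM, and at 0.280 and 0.409 CPM on EB day 0. *Nkx6-2* was at 11.8 to 18.4 CPM with shNT and at 16.3 and 18.6 CPM with shGas41-2 and was not called (0.21, SE 0.18, FDR = 0.486). On EB day 6 it was called lower at −4.72 (SE 0.30, FDR = 4.74e-05), as were *Nkx1-1* and *Nkx2-9*, whereas *Nkx6-1* and *Nkx1-2* were called higher. The 3 genes of the Nkx6 family therefore did not change together: *Nkx6-1* was at or below 0.102 CPM in every mESC library and at 0.242 and 0.666 CPM on EB day 6, when *Nkx6-3* was under the floor.

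Germ cell factors, the relatives of *Sohlh2*, moved differently in the 2 settings. With shGas41-2, 0 of 12 were called lower than shNT and 2 higher, *Dazl*, an RNA-binding protein of germ cells, at 1.85 (SE 0.22, FDR = 0.00344) and the ligand gene *Kitl* at 1.12 (SE 0.17, FDR = 0.00862). Against EB day 0 neither reached the 2-fold limit, with *Dazl* at 0.99 (SE 0.13, FDR = 0.000323) and *Kitl* at 0.49 (SE 0.15, FDR = 0.0272). *Sohlh1*, the partner of *Sohlh2*, was at 0.0814 to 0.113 CPM with shNT and at 0.207 and 0.274 CPM with shGas41-2 (1.30, SE 0.45, FDR = 0.107). Against EB day 0, 2 of 12 relatives were called higher by edgeR and 0 by DESeq2. Those were *Sohlh1* at 2.72 (SE 0.84, FDR = 0.0265) and *Figla* at 2.33 (SE 0.68, FDR = 0.021). Both were near the floor on EB day 0, at no more than 0.0667 CPM. *Tex14*, needed for bridges between germ cells, was at −0.53 (SE 0.11, FDR = 0.0247) against shNT, beside −0.58 for *Sohlh2*, but at −0.70 (SE 0.10, FDR = 0.000424) against EB day 0, where *Sohlh2* was at −0.16. On EB day 6, 6 of 10 were called lower, with *Stra8* at −5.02, *Tex14* at −4.79 and *Dazl* at −3.60. Another 2, *Sycp3* and *Zbtb16*, were called higher. Of all genes tested, 14.7% were called lower there and 16.6% higher. The median of the list was −1.60. All 7 germ cell markers together summed to between 53.3 and 64.3 CPM with shNT, 90.7 and 110 CPM with shGas41-1, 85.5 and 101 CPM with shGas41-2, and 16.1 and 19.4 CPM on EB day 6. Within it *Ddx4*, *Dazl*, *Tdrd1* and *Mael* were higher in both KD groups than with shNT, while *Sycp3* and *Stra8* overlapped shNT. *Piwil2* overlapped shNT with shGas41-1 and was higher with shGas41-2. On EB day 6 *Sycp3* was higher, at 1.38 and 1.66 CPM against 0.560 and 0.743 CPM on EB day 0. There *Tdrd1* overlapped EB day 0 and the others were lower. *Sohlh2* and *Zmynd15* were therefore lower in KD libraries in which the sum of the 7 markers was higher, and its part in their values was not tested.

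**Figure D4:**
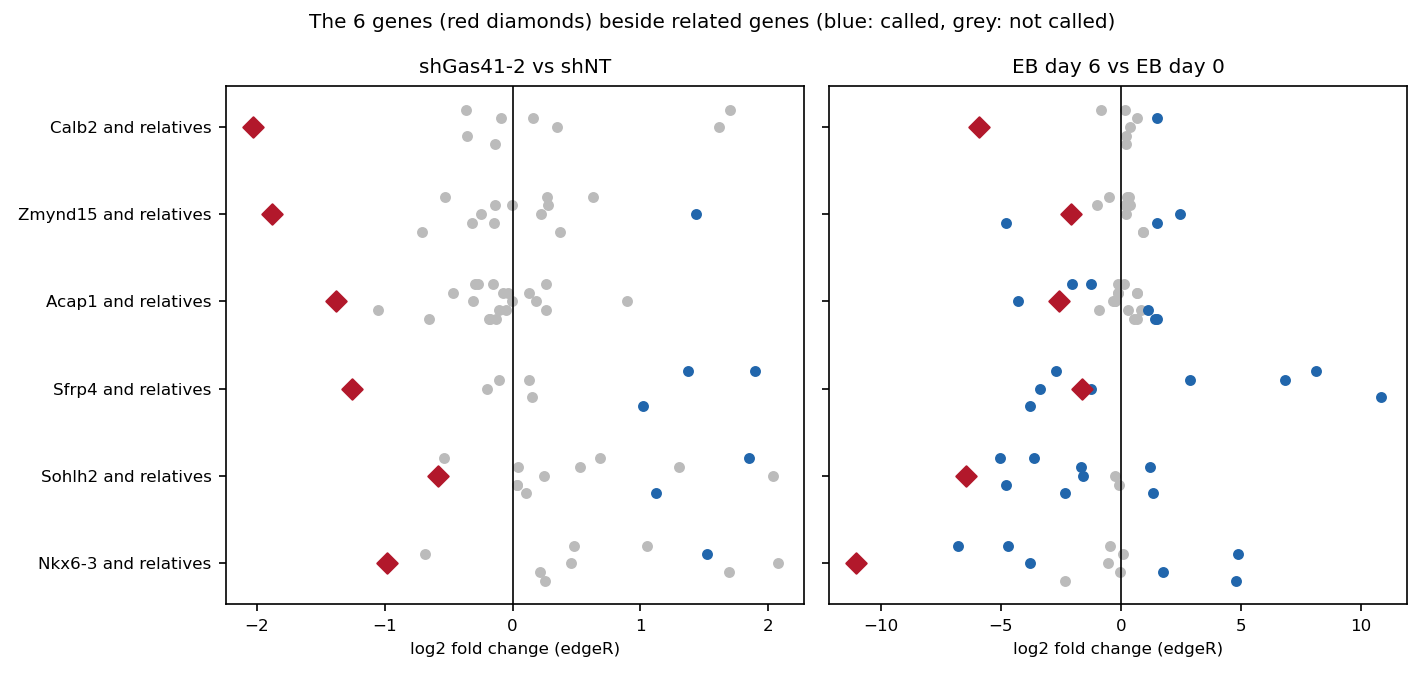
The log2 fold change (horizontal axis) of each of the 6 genes (red diamonds) and of their relatives (points, blue where called and grey where not) with shGas41-2 against shNT (left) and on EB day 6 against EB day 0 (right). On the left every diamond lies below 0 and no relative is called lower, and on the right relatives are called in both directions.

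Genes next to the 6 along the chromosome were examined for changes of whole neighbourhoods. *Epdr1*, which lies 3274 bases from *Sfrp4* on the opposite strand, had a log2 fold change of −0.81 (SE 0.11, FDR = 0.00637) with shGas41-2 against shNT and of −0.75 (SE 0.13, FDR = 0.00157) against EB day 0, and was not called at the 2-fold limit. On EB day 6 it differed in the other direction from *Sfrp4*, by 0.43 (SE 0.13, FDR = 0.0299). *Kctd11*, 582 bases from *Acap1*, was likewise at −0.80 (SE 0.21, FDR = 0.0522) against shNT and −0.90 (SE 0.24, FDR = 0.0142) against EB day 0, and rose by 1.14 (SE 0.22, FDR = 0.00479) on EB day 6.

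Other tested neighbours were not called with shGas41-2. *Ank1*, 2774 bases from *Nkx6-3*, was at −0.34 (SE 0.29, FDR = 0.485) against shNT, at −1.03 (SE 0.37, FDR = 0.0509) against EB day 0 and at −1.34 (SE 0.44, FDR = 0.0369) on EB day 6. *Dclk1*, 32569 bases from *Sohlh2*, was at −0.56 (SE 0.35, FDR = 0.336) with shGas41-2 and rose by 6.75 (SE 0.37, FDR = 2.92e-05) on EB day 6, when *Sohlh2* fell. *Ftsjd1*, 49750 bases from *Calb2*, was at −0.05 with shGas41-2 and −0.68 on EB day 6.

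Across the 12 libraries the genes most like each of the 6 in log2 CPM were found among 15099 genes. The libraries share groups, so these Pearson correlations follow the group means and are given as description. They include the shGas41-1 and shNT libraries used to choose the 6 genes, so part of each correlation comes from that choice. *Sohlh2* was most like *Sept1* (r = 0.996), *Trap1a* (0.996) and *Angptl4* (0.994), and *Nkx6-3* most like *Pnldc1* (0.995), *Tex14* (0.994) and *Sept1* (0.992). *Sept1* had group means of 68.6 CPM with shNT, 30.2 with shGas41-1, 61.7 with shGas41-2 and 1.77 on EB day 6. Like *Sohlh2*, it was lower with shGas41-1 than with shGas41-2.

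*Calb2* was most like *Creb3l3* (0.988) and *Prss41* (0.988), *Acap1* most like *Haus5* (0.983), *Rad54l* (0.969) and *Xlr5b* (0.968), *Sfrp4* most like *Gls2* (0.981), *Myo5c* (0.969) and *Napepld* (0.961), and *Zmynd15* most like *Mmp24* (0.966), *Atp6v1a* (0.965) and *Ttf2* (0.961). *Gls2*, a glutaminase gene, had group means of 14.5 CPM with shNT, 5.68 with shGas41-1, 7.34 with shGas41-2, 12.5 on EB day 0 and 5.87 on EB day 6, close in size to the levels of *Sfrp4*. Among the 6 genes themselves r ran from 0.506 to 0.992 over 12 libraries, highest for *Sohlh2* and *Nkx6-3*, and from 0.775 to 0.970 over the 10 mESC libraries. All 6 were chosen as low in the shGas41-1 libraries, so high r between them was partly fixed by the choice.

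Of the 6 genes only *Sohlh2* had an entry in the RefSeq promoter table, which gives the sequence around each gene's start. The promoter is shown because *Sohlh2* kept the largest share of its RNA with shGas41-2 and 1.14% on EB day 6. It is from GRCm38.p6, chr3:55181794-55182093, plus strand, a later build than that of the counts, with capitals on the motifs found.

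*Sohlh2* promoter: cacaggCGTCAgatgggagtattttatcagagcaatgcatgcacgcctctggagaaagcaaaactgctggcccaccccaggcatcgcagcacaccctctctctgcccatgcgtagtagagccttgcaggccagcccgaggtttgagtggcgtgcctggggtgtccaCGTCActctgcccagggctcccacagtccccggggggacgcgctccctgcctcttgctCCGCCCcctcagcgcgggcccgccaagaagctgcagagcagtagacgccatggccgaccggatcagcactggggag

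The window held 17 CpG dinucleotides, against a median of 7 over 32851 promoters, and 64.7% of its bases were G or C. Of these promoters 70.3% held as few CpG dinucleotides or fewer, and the rest held more. Motifs were searched on both strands. TGACG, the core of the cAMP response element, occurred 2 times, read on the minus strand as CGTCA, and is present in 20.8% of promoters. GGGCGG, a GC box, occurred 1 time (35.7% of promoters), read here as CCGCCC. The TATA box (13.6% of promoters, searched as TATAAA) did not occur in this window. Neither did the CCAAT box (37.4%), the E-box (7.15%, searched as CACGTG) or the octamer bound by Oct factors (1.74%, searched as ATGCAAAT).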

How the data were processed

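The RNA-seq data comprised 12 libraries of J1 cells, and 15 ChIP-seq samples of the series were not analysed here. The authors prepared libraries with the TruSeq RNA v2 kit, sequenced them on a NextSeq 500, mapped reads to mm9 with TopHat2 (2.0.10 in the submitters' processing notes) and counted reads per gene with htseq-count. The deposited values are raw counts per gene, in tables of 25807, 25216 and 24849 genes. Deposited columns with the authors' own fold changes, p-values and FDR were not used. The EB day 0 columns carry the ESC label of the control and differ from every shNT library.

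Counts were tested with edgeR 4.0.16 in R 4.3.3: filterByExpr (count minimum 10, total minimum 15), TMM scaling, the quasi-likelihood test on the libraries compared, and Benjamini-Hochberg adjustment over all genes tested. A call needed an FDR of at most 0.05 and a change of at least 1 on the log2 scale. CPM used TMM-scaled library sizes over the 23494 genes listed in all 3 tables, and all 6 genes passed the filter in each comparison. The model code was tested on simulated data. Alternatives were DESeq2 1.42.0, no filter, library totals, a replicate block, 1 fit of all 12 libraries, and leaving out each library. Named genes were the 6 genes, *Yeats4*, the 3 genes most correlated with each, chromosomal neighbours, and relatives that were called (up to 4 per list and comparison) or closest by name. Some genes that this rule names are not reported here. *Epdr1*, *Kctd11* and the like entered as nearest neighbours, while *Tex14* and *Sfrp1* were chosen for comparison after their values were seen. The 6 genes and all lists were chosen with earlier results of these data known. Gene positions are from the GENCODE vM1 annotation of mm9. shRNA sequences were read from the study's oligonucleotide list. Intervals of fold changes come from edgeR and include the spread between libraries, while the floors and the exact interval of *Nkx6-3* cover counting error only.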

Additional observations from a re-analysis of the deposited data

How the results depend on the processing

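Of 222 tested log2 fold changes of the 6 genes under alternatives, 207 kept their direction and side of the FDR limit, 9 went above and 5 came below it, and 1 reversed: *Sohlh2* with shGas41-2 against EB day 0 was at 0.00297 without EB day 0 replicate 2. Of 66 untested shGas41-1 values, 1 moved by more than the replicate spread (*Zmynd15*, −2.37 without shGas41-1 replicate 3). The number of the 6 genes called lower ranged over all alternatives from 3 to 5 with shGas41-2 against shNT, from 4 to 5 against EB day 0, and from 5 to 6 on EB day 6. In 1 fit of all 12 libraries the FDR of *Sohlh2* with shGas41-2 against shNT was 0.0641.

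Counts over all genes moved more. With 1 library left out, genes called lower ranged from 290 to 549 for shGas41-1 (438 with all), from 18 to 293 for shGas41-2 against shNT (160; 18 without shGas41-2 replicate 2 and 47 without replicate 1), from 548 to 808 against EB day 0 (651), from 1669 to 3027 on EB day 6 (2696; 1669 without EB day 0 replicate 3) and from 0 to 112 for EB day 0 against shNT (22). Library totals gave 246 for shGas41-2 against shNT. For EB day 0 against shNT, no filter gave 50, DESeq2 45, the replicate block 97 and the fit of all libraries 6.

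Replicates share only a number: their deviations correlated at −0.31 to 0.13 for shGas41-1 and shNT, and 0.27 and 0.18 for shGas41-2 and shNT. With the replicate block *Calb2* on EB day 0 against shNT was at −0.91 (FDR = 1.95e-06), and 5 of 6 genes were called with shGas41-2 against shNT, *Nkx6-3* being at −1.09. No paired analysis was possible for shGas41-2 against EB day 0 because they share 1 number. Depth limits *Nkx6-3* on EB day 6 and *Zmynd15*, which had 21 to 43 counts in each KD and EB day 6 library.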
